A study of Mus musculus with 28 samples.

Results

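The genes described here are 44 mouse genes of the interferon response and of MHC class I antigen presentation, taken as a list of gene symbols and matched to the Ensembl identifiers of the count table. All 44 were found among its 50686 genes. After the filter on low counts 40 of the 44 were tested, out of 16735 tested genes in all, and Ifi27l2a, Oas1a, Oas2 and Zbp1 were too low to be tested. Enriched mRNA of dorsal hippocampus, from male mice of strain C57Bl6, was sequenced in 28 libraries of 6 groups, with 16.24 to 20.3 M gene counts each (M, 1000000). Basal (n = 4) is the group with neither auditory fear conditioning nor a treatment. The other 5 groups were all fear conditioned, a task that pairs a tone with a shock, and then differ in treatment: Vehicle (n = 4), Cort (n = 5), RU486 (n = 5), C108 (n = 5) and C118 (n = 5). Cort commonly stands for corticosterone, the glucocorticoid hormone of rodents. RU486 (mifepristone) is an antagonist of the glucocorticoid receptor (GR). C108 and C118 are GR ligands known here by code name only. The sources used here state neither ages nor doses or times. Libraries are called by group and sample number, as in C118 20. The labels do not say whether each library came from a separate mouse, so p-values measure the spread between these libraries.

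Interferons are secreted when cells sense viral or misplaced nucleic acid. Type I interferons bind the receptor chains Ifnar1 and Ifnar2, whose kinases Jak1 and Tyk2 start a signal that brings Stat2 and Irf9 to the interferon-stimulated response element (ISRE) before target genes, while interferon gamma acts at the gamma-activated site (GAS). The targets include nucleic acid sensors, antiviral effectors, feedback inhibitors and the genes that load peptides on MHC class I. In the brain, microglia, astrocytes, endothelium and neurons can all respond.

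RefSeq promoter windows of GRCm38.p6, from 250 bases before to 50 after each start, were given for 34 of the 44 genes. The ISRE letters GAAANNGAA, searched on both strands, with overlapping matches counted, were in a window of 16 of the 34 genes (47.1%), against 9.76% of the 27025 genes with a window. The looser letters AANNGAAA were found for 24 of the 34 (70.6%, against 26.7%) and the GAS letters TTCNNNGAA for 9 (26.5%, against 9.55%); ISRE matches often also hold the looser letters. All 8 stretches below hold the ISRE letters, and capitals mark these letters or their reverse complement. Irf7 and Oasl2, which stand out in single libraries, have windows without these letters and are not shown. The stretches are from other such genes, with B2m as the most abundant of the 44. Those of Ifit1 (chr19:34640737-34640856, plus strand), Ifit3 (chr19:34583345-34583464, plus strand) and Ifit3b (chr19:34607741-34607860, plus strand) come from the Ifit cluster. The others are Isg15 (chr4:156200827-156200946, minus strand), Rsad2 (chr12:26456508-26456627, minus strand), Gbp2 (chr3:142620543-142620662, plus strand), Gbp3 (chr3:142559924-142560043, plus strand) and B2m (chr2:122147492-122147611, plus strand).
Ifit1: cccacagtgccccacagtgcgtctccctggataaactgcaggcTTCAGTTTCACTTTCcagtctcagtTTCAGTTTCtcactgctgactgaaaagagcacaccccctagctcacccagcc
Ifit3: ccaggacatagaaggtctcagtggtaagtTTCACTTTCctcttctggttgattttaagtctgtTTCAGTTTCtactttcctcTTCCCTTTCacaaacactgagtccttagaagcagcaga
Ifit3b: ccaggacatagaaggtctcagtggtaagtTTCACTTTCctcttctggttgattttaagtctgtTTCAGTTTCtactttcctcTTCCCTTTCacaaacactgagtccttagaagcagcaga
Isg15: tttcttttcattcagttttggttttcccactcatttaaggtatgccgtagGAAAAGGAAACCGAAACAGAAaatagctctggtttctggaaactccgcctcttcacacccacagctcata
Rsad2: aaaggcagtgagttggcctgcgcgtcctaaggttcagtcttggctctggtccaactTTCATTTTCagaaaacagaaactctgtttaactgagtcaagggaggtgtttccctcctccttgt
Gbp2: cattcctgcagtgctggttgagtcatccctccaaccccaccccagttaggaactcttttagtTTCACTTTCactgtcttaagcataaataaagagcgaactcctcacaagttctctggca
Gbp3: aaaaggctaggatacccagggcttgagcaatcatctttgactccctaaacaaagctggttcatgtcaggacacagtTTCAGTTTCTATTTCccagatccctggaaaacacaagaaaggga
B2m: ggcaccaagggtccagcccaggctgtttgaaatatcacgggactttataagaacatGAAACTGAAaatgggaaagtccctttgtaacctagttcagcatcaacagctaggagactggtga
Ifit3 and Ifit3b are identical at 120 of the 120 positions shown. Their transcripts are also close: 31.65% of the 100-base stretches of Ifit3 recur in Ifit3b or another gene, so the split of reads between them is uncertain. A match of letters is a description of the window, not evidence of binding.

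Levels per kilobase of exon differed widely between the 44 genes. B2m, the light chain of every MHC class I molecule, led with 73.9 ± 8.52 CPM per kilobase (CPM, counts scaled to 1000000 per library; mean ± SD over the 28 libraries). Ifi27, a mitochondrial interferon-induced protein, followed at 16.2 ± 2.38, and the class I heavy chains H2-D1 and H2-K1 came next at 10.2 ± 1.47 and 6.01 ± 1.4. Stat2, the signal transducer of type I interferon, had 5.19 ± 0.506, and Cmpk2, a mitochondrial nucleotide kinase, had 4.7 ± 0.482. The antiviral Ifit proteins, which bind foreign RNA or its partners, were lower, from Ifit3 at 2.57 ± 1.69 down to Ifit1 at 0.649 ± 0.565. The lowest of all was Zbp1, a sensor of left-handed nucleic acid, at 0.0332 ± 0.0517. By role, the list holds the sensors Dhx58, Eif2ak2, Ifih1 and Zbp1, the transcription factors Irf1, Irf7, Irf9, Sp100 and Stat2, the Ifit genes Ifit1, Ifit2, Ifit3 and Ifit3b, and the synthetase family Oas1a, Oas2 and Oasl2. It also holds the ISG15 system (Isg15, Herc6, Usp18), the GTPases Gbp2, Gbp3, Gbp6 and Gbp7, and the effectors Bst2, Cmpk2, Isg20, Rsad2, Rtp4, Slfn2 and Trim30a. Parp9 and Parp14 attach ADP-ribose, Ifi27, Ifi27l2a, Ifi35, Ifi44, Lgals3bp and Xaf1 are other induced genes, and B2m, H2-D1, H2-K1, Psmb8, Psmb9 and Tap1 serve antigen presentation. In the order of levels 39 of the 43 neighbouring pairs lay within 1 SD of each other, and the pairs after B2m, Ifi27, H2-D1 and Ifit2 did not. Over the 28 libraries the tested genes spanned from 0.587 log2 CPM between lowest and highest library (Stat2) to 4.18 (Usp18), and Ifit1 (3.86), Irf7 (3.76) and Isg15 (3.29) had the next widest spans. A low level here can be few cells of a type or little RNA per cell, which bulk tissue cannot tell apart.

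Hippocampal markers were present in all libraries, with summed levels of 161 to 550 CPM for CA1, 52.7 to 83.2 CPM for CA3 and 207 to 412 CPM for the dentate gyrus. Neighbouring tissue varied: thalamus markers summed to 69.4 to 476 CPM, highest in Vehicle 16, and choroid plexus markers to 31.3 to 4230 CPM, highest in RU486 6. Lymphocyte markers were near 0, at 0.0508 to 0.821 CPM in all, and 0 of these 10 genes could be tested. Of the 28 libraries, C118 20 stood apart in most of the genes described here, and C118 38 in a part of them. The tests that include C118 are therefore also given without these libraries. Because they were picked for high levels of these same genes, leaving them out lowers the mean C118 level by construction. Those fits describe how far the values rest on 2 libraries and are not an independent test.

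C118 20 had the highest level of all 28 libraries at 28 of the 40 tested genes (70%, against 2.16% of all tested genes). It exceeded the median of the 28 libraries more than 2-fold at 20 of the 40 genes, and C118 38 did so at 10, whereas 0.783% and 0.412% of all tested genes did. All 10 of the C118 38 genes were among the 20 of C118 20: Ifit1, Ifit3, Ifit3b, Ifi44, Isg15, Oasl2, Rsad2, Rtp4, Usp18 and Gbp6. C118 38 was the highest of the 28 libraries at only 2 of the 40 genes (5%, against 7.02% of all tested genes). The mean centred log2 CPM of the 40 genes, a score per library, was 1.08 in C118 20 and 0.39 in C118 38, but 0.14 in C118 7, 0.13 in C118 13 and -0.26 in C118 33. The C118 group thus held the highest score of the 28 and one lower than every Basal, Vehicle and RU486 library, with a mean of 0.30 ± 0.495 (SD, n = 5). The other group means were 0.105 ± 0.221 in Basal (n = 4), 0.0315 ± 0.213 in Vehicle (n = 4), -0.107 ± 0.191 in Cort (n = 5), -0.0249 ± 0.0686 in RU486 (n = 5) and -0.274 ± 0.216 in C108 (n = 5). The highest single score outside C118 was 0.34, in Basal 1, close to that of C118 38. Basal 1 exceeded the median more than 2-fold at 4 of the 40 genes, against 2.25% of all tested genes.

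**Figure D1:**
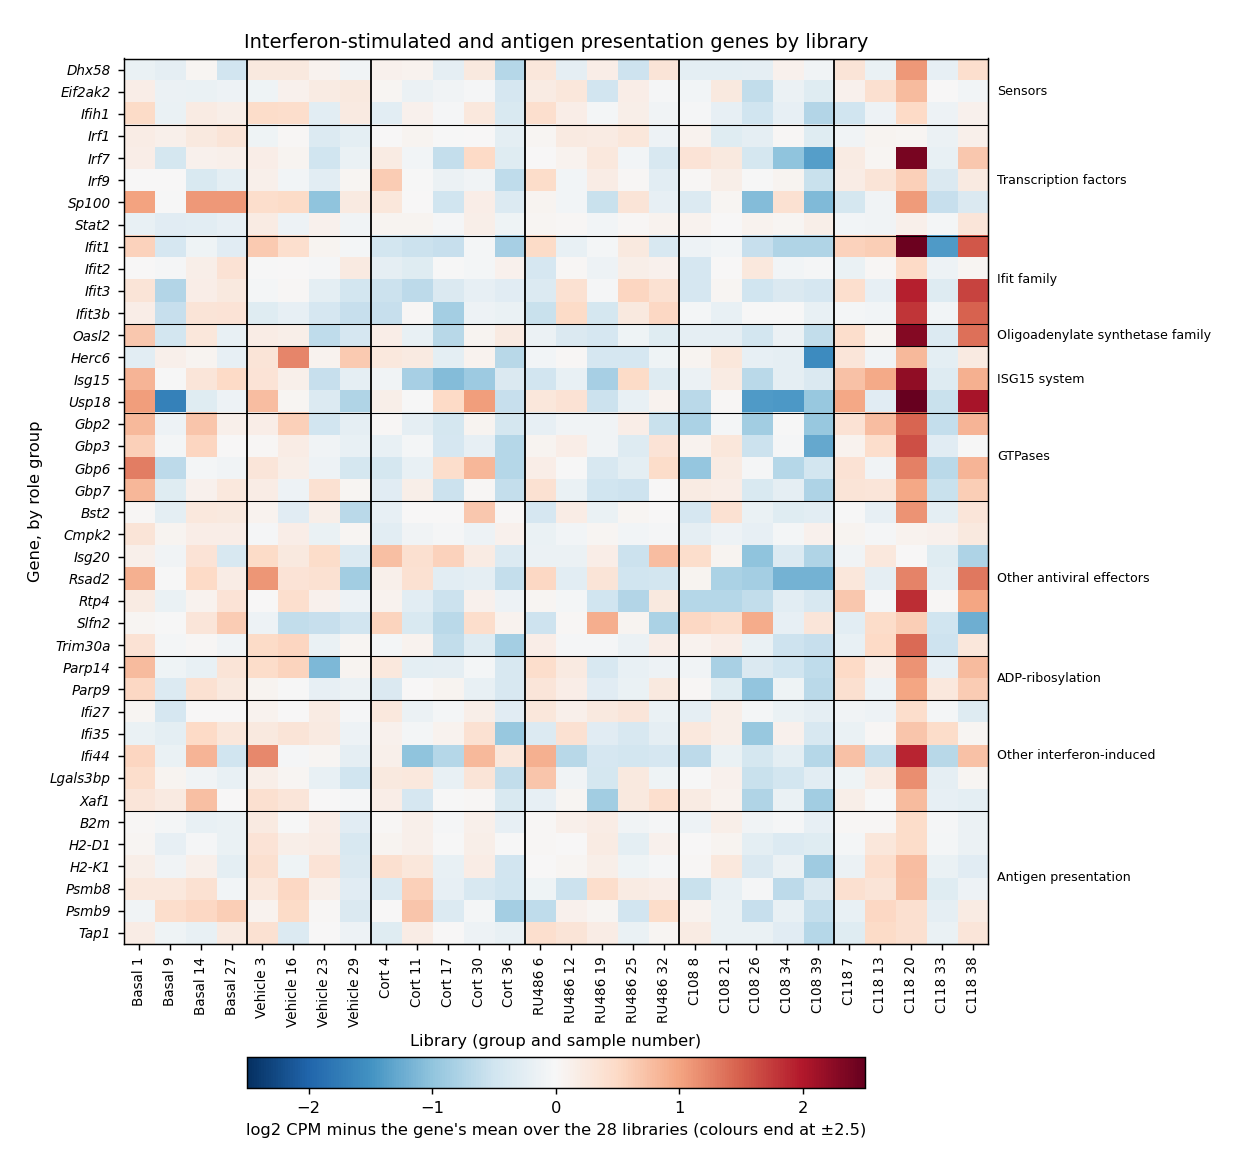
Each cell is the log2 CPM of a gene (rows, by role) in a library (columns, by group) minus the gene's mean over the 28 libraries; red is higher, blue lower, and colours end at 2.5. The column of C118 20 is red in nearly every row, that of C118 38 mainly in the Ifit, OAS and ISG15 rows, and the columns of C108 26 and C108 39 are mostly blue.

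The role groups differed in how far these 2 libraries stood out. In the ISG15 system, Isg15, a ubiquitin-like modifier, was at 6.13 times its median over the 28 libraries in C118 20 and 2.3 times in C118 38. Usp18, which removes Isg15 and dampens the type I receptor, was at 6.81 and 5.05 times. Among the Ifit genes, the ratios were 6.19 and 3.29 for Ifit1, 4.49 and 3.75 for Ifit3, and 3.72 and 3 for Ifit3b, while Ifit2 was at only 1.43 and 1.04 times. Oasl2, of the oligoadenylate synthetase family, was at 5.69 and 3.01 times. The guanylate-binding proteins, GTPases that attack pathogen compartments, had a median ratio of 2.99 in C118 20 and 1.73 in C118 38. Gbp3 split the libraries, with 3.18 times in C118 20 and 1 in C118 38.

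Other genes stood out mainly in C118 20, or in neither library. Irf7, the transcription factor that amplifies type I interferon production, was at 5.35 times its median in C118 20 and 1.57 times in C118 38. Lgals3bp, a secreted glycoprotein, was at 2.35 and 1.08 times. The 6 antigen presentation genes had a median ratio of 1.39 in C118 20 and 0.93 in C118 38. B2m was at 1.39 and 0.914 times, H2-K1 at 1.72 and 0.823 times, and H2-D1 at 1.37 and 0.901 times. Irf1, a transcription factor induced by interferon gamma, was at 1.01 and 1.08 times. Stat2, the gene with the narrowest span, was at 1.07 and 1.21 times, and C118 38 was its highest library. Slfn2, a regulator of T cell quiescence, was at 1.54 times in C118 20 but 0.382 times in C118 38, its lowest library.

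**Figure D2:**
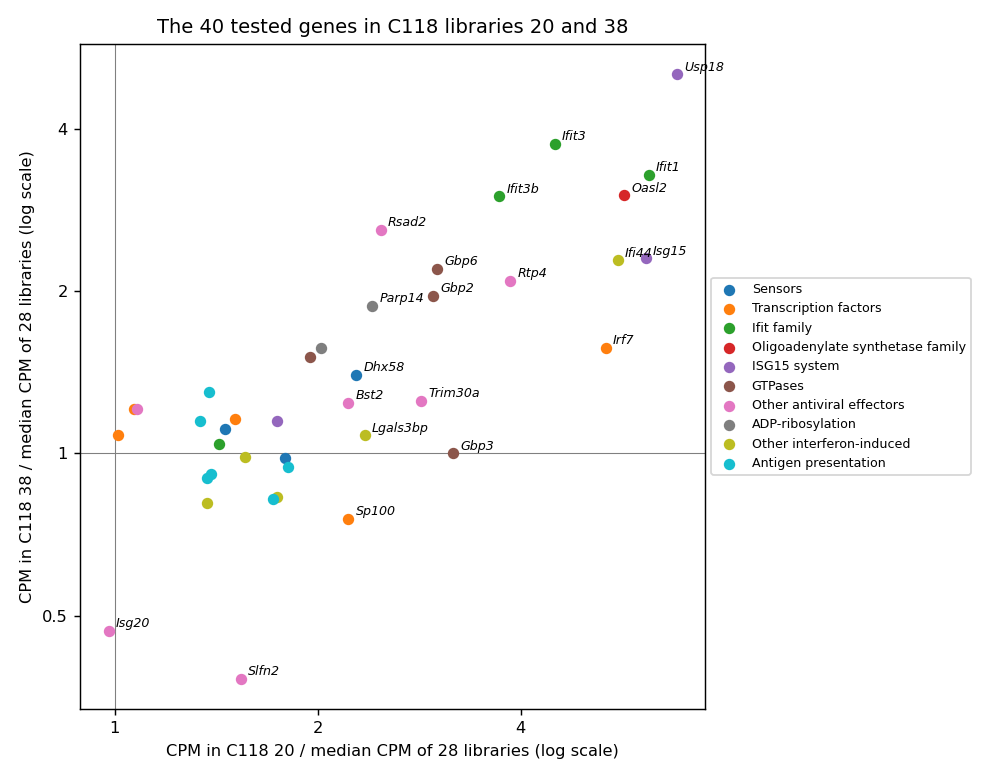
Each point is 1 of the 40 tested genes, placed by its CPM in C118 20 (horizontal) and C118 38 (vertical) over its median CPM of the 28 libraries, both on log scales, with colours for role groups. Usp18, Ifit1, Ifit3, Ifit3b and Oasl2 lie at 3 or more on both axes, while the antigen presentation genes lie between 1.34 and 1.81 horizontally and between 0.823 and 1.3 vertically.

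The 4 untested genes had few counts but the same library stood out. Zbp1 had 18 counts in C118 20 and 8 in C118 38, and 63 in all 28 libraries. Ifi27l2a, a relative of Ifi27, had 36 of its 156 counts in C118 20 and 6 in C118 38. The RNA-activated synthetases Oas1a and Oas2 had 15 of 129 and 14 of 89 counts in C118 20, and 7 and 3 in C118 38.

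C118 20 and C118 38 were the 2 highest of the 28 libraries at 11 of the 40 genes (27.5%, against 0.149% of all tested genes). These were Ifit1, Ifit3, Ifit3b, Irf7, Oasl2, Rsad2, Rtp4, Usp18, Gbp2, Dhx58 and Parp9. Promoter windows were given for 7 of them, and the ISRE letters were in 5: Ifit1, Ifit3, Ifit3b, Rsad2 and Gbp2. The windows of Irf7 and Oasl2 do not hold these letters. Of the 6 antigen presentation genes, all with a window, B2m alone holds them. The looser letters AANNGAAA were not counted for these sets, and the H2-K1 window holds a match to them.

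The libraries C118 20 and C118 38 lay at opposite ends of several cell type marker sums. Microglia markers (11 of 11 tested, Cx3cr1 the defining marker) summed to 465 CPM in C118 20, the highest of the 28 libraries, and to 281 CPM in C118 38, the lowest. Cx3cr1 itself, at 51.8 and 29.1 CPM, was higher in Basal 27 (57.8 CPM) and lower in Cort 36 (26.1 CPM). Astrocyte markers (7 of 7 tested) summed to 1910 CPM in C118 20 and 946 CPM in C118 38, again the highest and the lowest. Gfap held 537 and 213 CPM of these sums, and was also at 500 CPM in C118 33. Slc1a3, at 724 and 406 CPM, was highest in Vehicle 29 (913 CPM). The sum of monocyte and neutrophil markers, of which 1 of 7 was tested, was also highest and lowest there, at 9.21 and 2.91 CPM. It was nearly all Lyz2, at 8.37 and 2.81 CPM, and S100a8 was at 0 in both libraries. Endothelial markers (8 of 8 tested) summed to 107 and 33.9 CPM, within a range of 32.2 to 148 CPM. The part of cell composition in the levels of the 40 genes was not tested.

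C118 against Vehicle asks whether this ligand given with conditioning changed the genes. In edgeR's quasi-likelihood test 0 of the 40 genes passed an adjusted p of 0.05, where 0% of all tested genes did, and DESeq2 and limma-voom called 0 as well. At an unadjusted p under 0.05, 10 of the 40 (25%) were higher and 0 lower, against 8.01% of all tested genes in either direction. The median log2 fold change of the 40 genes was 0.262, and 34 were positive, while the median of all tested genes was 0.00874.

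Ifit3 had 5.36, 3.47, 15.6, 3.17 and 13 CPM in C118 7, 13, 20, 33 and 38, against 3.87, 4.05, 3.35 and 2.87 CPM in Vehicle 3, 16, 23 and 29. Libraries 20 and 38 were far above all others, C118 7 was also above every Vehicle library, and C118 13 and 33 lay within the Vehicle range. The log2 fold change was 1.20 ± 0.34 (SE), with an adjusted p of 0.242 (edgeR). Ifit3b had 2.41, 2.37, 8.84, 2.38 and 7.13 CPM in the same C118 libraries and 1.64 to 2.15 CPM in Vehicle, with no overlap and a log2 fold change of 1.28 ± 0.338 (adjusted p = 0.201, edgeR). Both are from the near-identical pair shown above.

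Oasl2 had 3.17, 2.43, 11.7, 1.8 and 6.18 CPM in C118 and 2.63, 2.57, 1.45 and 1.69 CPM in Vehicle. The same 2 libraries were high, C118 7 was again above every Vehicle library, and C118 13 and 33 lay within the Vehicle range, for a log2 fold change of 1.28 ± 0.365 (adjusted p = 0.248, edgeR). Isg15 had 0.984, 1.16, 2.95, 0.423 and 1.1 CPM in C118 and 0.723, 0.616, 0.335 and 0.461 CPM in Vehicle. It differed in that 4 of the 5 C118 libraries, 7 and 13 among them, exceeded every Vehicle library (log2 fold change 1.30 ± 0.39, adjusted p = 0.286, edgeR).

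Irf7 had 1.42, 1.27, 6.84, 1.06 and 2.01 CPM in C118 and 1.39, 1.28, 0.837 and 1.07 CPM in Vehicle. Library 20 alone was far out, and the log2 fold change was 1.13 ± 0.425 (adjusted p = 0.455, edgeR). Usp18 had 1.26, 0.463, 3.79, 0.37 and 2.81 CPM in C118 and 0.307 to 1.08 CPM in Vehicle, with a log2 fold change of 1.5 ± 0.561 (adjusted p = 0.455, edgeR). For antigen presentation the groups lay together: the log2 fold change was 0.0483 ± 0.106 for B2m, 0.0726 ± 0.216 for H2-K1 and 0.0181 ± 0.126 for H2-D1.

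Without C118 20 and C118 38 the filter left 39 of the genes (all but Gbp6), of which 0 were higher and 2 lower at an unadjusted p under 0.05 (5.13%, against 4.47% of all tested genes), and their median log2 fold change against Vehicle was -0.0161. That of Ifit3 was then 0.18, of Ifit3b 0.32, of Oasl2 0.24, of Usp18 0.18 and of Irf7 0.12. Isg15 was at 0.66, B2m at -0.027, H2-K1 at -0.05 and H2-D1 at -0.03, while Ifit1 stood at -0.13 and Ifi44, an interferon-induced protein of microtubular aggregates, at -0.50. Each had an adjusted p of 1 in that fit (edgeR).

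**Figure D3:**
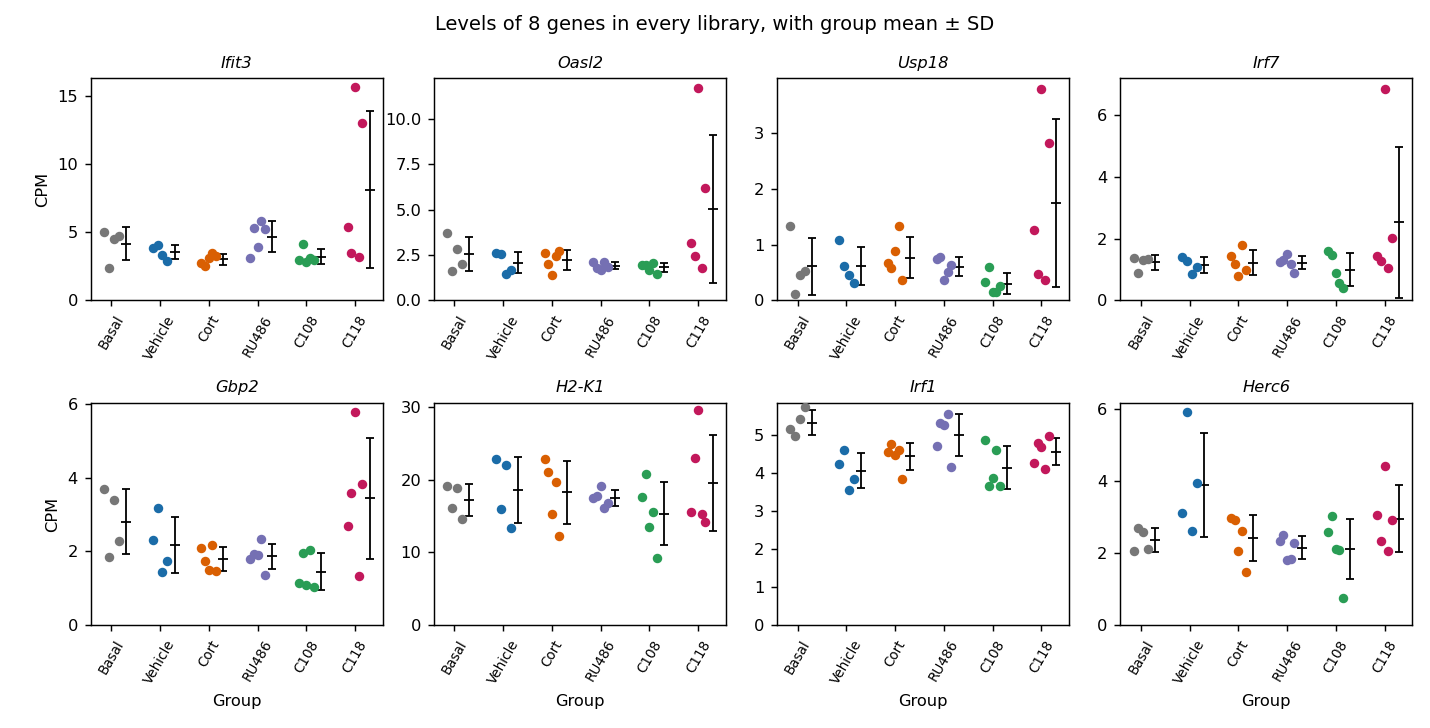
Points are the CPM of 8 genes in each library, by group, with the group mean and SD as a bar at the right of each group and axes that start at 0. For Ifit3, Oasl2 and Usp18 the points of C118 20 and C118 38 lie above all other libraries, for Irf7 that of C118 20 lies far above, and Irf1 is higher in Basal than in Vehicle.

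The 4 ligands were compared with each other in 6 pairs, at doses and times that are not given. C108 against C118 showed the widest gap: 0 of the 40 genes passed the adjusted test (0% of all tested genes), but at an unadjusted p under 0.05 24 of the 40 (60%) were lower in C108 and 0 higher, against 2.4% of all tested genes. The median log2 fold change of the 40 genes was -0.517, and 38 were negative. Without C118 20 and C118 38 the median was -0.248, and 6 of 39 genes (15.4%) were lower and 0 higher unadjusted, against 3.98% of all tested genes.

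Rtp4, an interferon-induced chaperone of receptors, had 0.711, 0.712, 0.774, 1.01 and 0.915 CPM in C108 8, 21, 26, 34 and 39, and 2.02, 1.22, 4.74, 1.27 and 2.56 CPM in C118. The groups did not overlap, and the log2 fold change was -1.51 ± 0.286 (adjusted p = 0.202, edgeR). Usp18 had 0.328, 0.602, 0.155, 0.152 and 0.254 CPM in C108, of which C108 21 alone reached into the C118 range (log2 fold change -2.54 ± 0.581, adjusted p = 0.559, edgeR). Gbp2 had 1.15, 1.97, 1.08, 2.03 and 1.02 CPM in C108 and 2.68, 3.59, 5.79, 1.32 and 3.82 CPM in C118. Here C118 33 was the library that overlapped, and the log2 fold change was -1.24 ± 0.291 (adjusted p = 0.559, edgeR).

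Which genes passed between C108 and C118 depended on single libraries and on the tool. Without C118 33, 7 of the 40 genes were called lower in C108: Gbp2, Oasl2, Usp18, Rtp4, Ifit1, Isg15 and Ifit3, where 0.0478% of all tested genes (8 genes) were called. Without C118 13 Rtp4 alone was called (0.00598% of all tested genes), and DESeq2 on all libraries also called Rtp4 alone (0.00315%). Without C118 20 and C118 38 the log2 fold change was -0.86 for Rtp4, -1.22 for Usp18 and -0.80 for Gbp2 (adjusted p = 0.89 for each, edgeR), and 0 of the genes were called.

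Cort against C118 gave a similar picture with 0 of 40 called (0% of all tested genes) and, unadjusted, 17 of the 40 (42.5%) lower in Cort and 0 higher, against 4.26% of all tested genes. Isg15 had 0.511, 0.265, 0.206, 0.247 and 0.409 CPM in Cort 4, 11, 17, 30 and 36, below every C118 library but C118 33. Its log2 fold change was -1.99 ± 0.389 (adjusted p = 0.101, edgeR). Ifit1 followed at -1.80 ± 0.409 (adjusted p = 0.189, edgeR), with 0.767 to 1.38 CPM in Cort against 2.19, 2.26, 8.32, 0.476 and 4.42 CPM in C118. C118 33 held the lowest Ifit1 level of all 28 libraries. DESeq2 called 3 of the genes lower in Cort, namely Ifit1, Isg15 and Ifit3, where 0.0861% of all tested genes were called, and edgeR called the same 3 without C118 33 (0.0179%). Without C118 20 and C118 38 the median log2 fold change of the genes went from -0.348 to -0.073, and 1 of 39 genes (2.56%) was lower and 0 higher unadjusted, against 4.46% of all tested genes. Isg15 was then at -1.36 (adjusted p = 0.921) and Ifit1 at -0.69 (adjusted p = 0.956, edgeR).

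RU486 against C118 had 0 of 40 called (0%) and, unadjusted, 12 of the 40 (30%) lower in RU486 and 0 higher, against 1.83% of all tested genes. The median log2 fold change was -0.36, and without C118 20 and C118 38 it was -0.0374. Oasl2 had a log2 fold change of -1.41 ± 0.344 and Rtp4 one of -1.10 ± 0.278, both with an adjusted p of 1 (edgeR). Without C118 20 and C118 38 they were at -0.37 and -0.45, and 1 of 39 genes was higher and 1 lower unadjusted (5.13%, against 1.3% of all tested genes). In RU486 Oasl2 was even, at 1.7 to 2.12 CPM, below C118 7, 13, 20 and 38.

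**Figure D4:**
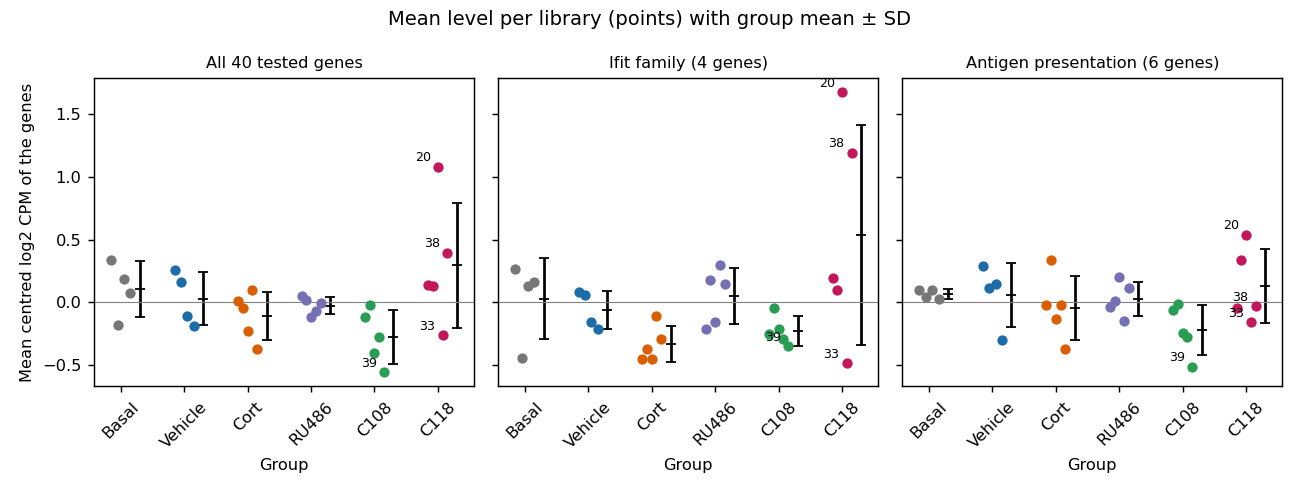
Points are the mean centred log2 CPM per library of all 40 tested genes, the 4 Ifit genes and the 6 antigen presentation genes, with group mean and SD beside them and numbers on libraries named in the text. C118 20 is highest in all 3 panels, at 1.08, 1.67 and 0.54, while C118 38 is high for the Ifit genes (1.19) and not for antigen presentation (-0.03).

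C108 against Vehicle asks the same of the other coded ligand. Of the 40 genes 0 passed the adjusted test, where 0.215% of all tested genes did, and DESeq2 and limma-voom called 0 too. Unadjusted, 6 were lower and 1 was higher (17.5%), against 17.4% of all tested genes, so the share was close to the background. The median log2 fold change was -0.282, and 35 of the 40 were negative. C108 39, with a score of -0.56, had the lowest level of all 28 libraries at 10 of the 40 genes, but it was also the lowest at 6.54% of all tested genes. Its marker sums were low for microglia (293 CPM), astrocytes (985 CPM) and endothelium (32.2 CPM, the lowest of the 28) and highest for neurons (7440 CPM). Their part in the lower levels was not tested, and without C108 39 the median was -0.228.

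Herc6, the main ligase that attaches Isg15 to proteins in mice, had 2.57, 3.01, 2.11, 2.08 and 0.762 CPM in C108 and 3.1, 5.9, 2.62 and 3.94 CPM in Vehicle. C108 21 was within the Vehicle range and C108 39 was the lowest of all libraries (log2 fold change -0.89 ± 0.273, adjusted p = 0.119, edgeR). Of the 100-base stretches of Herc6, 20.89% recur in an overlapping gene model, Gm45193, so its counts are uncertain. Rsad2, or viperin, which makes a chain-terminating nucleotide, had 0.876, 0.438, 0.413, 0.304 and 0.305 CPM in C108 and 1.91, 1.08, 1.12 and 0.409 CPM in Vehicle. Only Vehicle 29 lay among the C108 values, and the log2 fold change was -1.27 ± 0.422 (adjusted p = 0.143, edgeR). Ifih1, the sensor of long double-stranded RNA also called MDA5, had 1.37 to 2.3 CPM in C108 and 1.95 to 3.3 CPM in Vehicle (log2 fold change -0.59 ± 0.205, adjusted p = 0.158, edgeR).

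Slfn2 went the other way, with 2.24, 2.13, 3.04, 1.32 and 1.93 CPM in C108 against 1.39, 0.975, 1.0 and 1.07 CPM in Vehicle. C108 34 lay within the Vehicle range, and the log2 fold change was 0.94 ± 0.354 (adjusted p = 0.182, edgeR). Without Vehicle 23 the calls changed: Ifih1 and Herc6 were then called lower in C108, 2 of the genes, where 3.87% of all tested genes were called.

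Vehicle against Basal shows conditioning together with vehicle handling. Of the 40 genes 0 passed the adjusted test in edgeR, where 4.11% of all tested genes did, and limma-voom called 0. Unadjusted, 2 were higher and 1 lower (7.5%), against 18.1% of all tested genes. The median log2 fold change was -0.0577.

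Irf1 had 5.17, 4.99, 5.43 and 5.74 CPM in Basal 1, 9, 14 and 27 and 4.23, 4.62, 3.57 and 3.84 CPM in Vehicle. Every Basal library was above every Vehicle library, and the log2 fold change was -0.39 ± 0.126 (adjusted p = 0.0726, edgeR). Stat2 had 26.8, 25.3, 25.4 and 26.4 CPM in Basal and 35.3, 28, 32.9 and 28.8 CPM in Vehicle, again with no overlap but in the other direction (log2 fold change 0.27 ± 0.0847, adjusted p = 0.0682, edgeR). DESeq2 called Stat2 alone of the genes, where 6.2% of all tested genes were called. So did edgeR without Vehicle 16 (3.55%) and without both Vehicle 16 and Vehicle 29 (2.21%). Vehicle 16 and Vehicle 29 had the lowest CA1 marker sums of the 28 libraries, at 161 and 236 CPM. In the conditioned groups Stat2 spanned 28 to 38 CPM, and no library of these 24 was as low as the highest Basal library.

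Herc6 had 2.05 to 2.69 CPM in Basal against 3.1, 5.9, 2.62 and 3.94 CPM in Vehicle, where Vehicle 16 was the highest of all 28 libraries (log2 fold change 0.72 ± 0.287, adjusted p = 0.161, edgeR). Vehicle 16 also had the highest thalamus marker sum, 476 CPM, and the part of this in Herc6 was not tested. Without Vehicle 16 and Vehicle 29 the log2 fold change of Herc6 was 0.28 (adjusted p = 0.819, edgeR). Slfn2, at 1.53 to 2.46 CPM in Basal and 0.975 to 1.39 CPM in Vehicle, did not overlap between these groups, with a log2 fold change of -0.76 ± 0.372 (adjusted p = 0.281, edgeR).

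For Cort and RU486 the question against Vehicle is again what the ligand changed after conditioning, and edgeR, DESeq2 and limma-voom each called 0 of the genes. In Cort against Vehicle 0 of 40 were called (0.00598% of all tested genes, or 1 gene), and 1 of 40 (2.5%) had an unadjusted p under 0.05, against 11.6% of all tested genes. That gene was Herc6, with 2.97, 2.91, 2.06, 2.62 and 1.48 CPM in Cort (log2 fold change -0.69 ± 0.27, adjusted p = 0.316, edgeR). Ifit1 and Trim30a, a ring-finger protein that restrains inflammatory signalling, followed with log2 fold changes of -0.82 (adjusted p = 0.483) and -0.60 (adjusted p = 0.432, edgeR).

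In RU486 against Vehicle 0 of 40 were called (0%), and 2 of 40 (5%) had an unadjusted p under 0.05, against 8.16% of all tested genes. Herc6 had 2.33, 2.5, 1.81, 1.82 and 2.27 CPM in RU486, below every Vehicle library (log2 fold change -0.86 ± 0.273, adjusted p = 0.308, edgeR). Irf1 had 4.73, 5.32, 5.27, 5.56 and 4.17 CPM in RU486, 4 of them above the highest Vehicle library, for a log2 fold change of 0.30 ± 0.121 (adjusted p = 0.473, edgeR). Since the ligand groups share the Vehicle libraries, the lower Herc6 in each is not repeated evidence. Without Vehicle 16 and Vehicle 29 its log2 fold change was -0.25 for Cort, -0.42 for RU486 and -0.44 for C108.

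In the remaining pairs, Cort against RU486 had 0 of 40 genes called (0.0538% of all tested genes) and 0 with an unadjusted p under 0.05, against 5.34%. Cort against C108 had 0 called (0%) and 2 of 40 (5%) higher unadjusted, against 4.88%, namely Usp18 and Isg20, an RNA exonuclease. RU486 against C108 had 0 called (0%) and 5 of 40 (12.5%) higher unadjusted, against 5.74%: Ifi27, Ifih1, Irf1, Parp9 and Tap1, the peptide transporter of antigen presentation. DESeq2 and limma-voom called 0 of the genes in these 3 pairs.

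**Figure D5:**
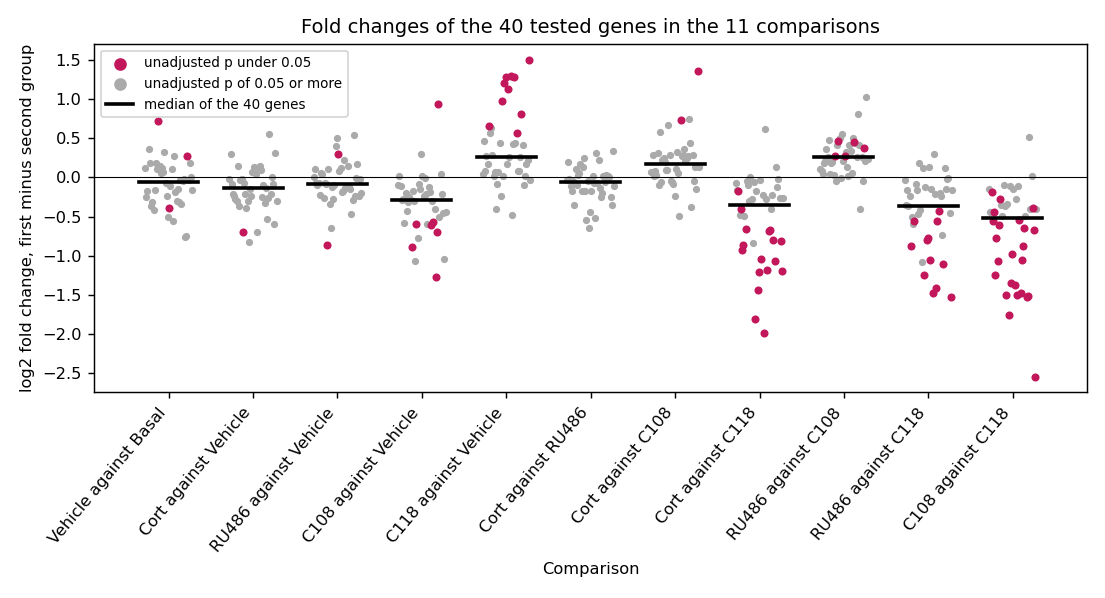
Each point is the log2 fold change (first minus second group) of 1 of the 40 tested genes in a comparison, coloured where the unadjusted p was under 0.05, with the median as a bar. The medians lie between -0.517 (C108 against C118) and 0.262 (C118 against Vehicle), and the 3 lowest are those of ligands against C118.

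The rest of the pathway was read from 4 lists. The 5 interferon genes on the lists, Ifnb1, Ifna4, Ifng, Ifnl2 and Ifnk, were not detectable, with 0 counts in all 28 libraries. This allows up to 0.148 to 0.185 CPM per library, for 3 counts. Other interferon genes were not read. Of 37 ligands, receptors and signalling genes 28 were tested, and 3 (1 higher, 2 lower) passed in Vehicle against Basal (edgeR), where 4.11% of all tested genes did. Tmem173, the adaptor STING, was lower in Vehicle than in Basal by a log2 fold change of -1.01 (adjusted p = 0.0197, edgeR). It had 2.41 to 3.91 CPM in Basal and 0.929 to 2.0 CPM in Vehicle. Ptpn6, a phosphatase that dampens cytokine signalling, fell by 0.80 on that scale (adjusted p = 0.0485). Tlr7, the endosomal sensor of single-stranded RNA, rose by 1.04 (adjusted p = 0.0219), from 2.99 to 4.99 CPM to 6.8 to 8.75 CPM. Tmem173 had 2.62, 2.84, 3.84, 2.06 and 1.41 CPM in C118 7, 13, 20, 33 and 38. Of these, C118 7, 13 and 20 lay within the Basal range, as did some RU486 and C108 libraries but no Cort library. In the other 10 comparisons 0 of the 28 passed, and 0 to 4 had an unadjusted p under 0.05.

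Of 50 other interferon-stimulated genes 34 were tested. Ifit1bl1, a relative of Ifit1, rose by 0.92 (adjusted p = 0.0277, edgeR) in Vehicle against Basal, from 1.57 to 2.12 CPM to 2.43 to 5.48 CPM. It was 1 of the 34, where 4.11% of all tested genes passed, and 0 passed in the other comparisons, where 1 to 17 had an unadjusted p under 0.05. For C118 against Vehicle, 3 of the 34 were higher and 0 lower at an unadjusted p under 0.05. Of all tested genes 8.01% had such a p, so the share was close to the background. The median log2 fold change of the 34 was 0.0927 there. In C108 against C118 17 of the 34 were lower at an unadjusted p under 0.05 and 0 higher, against 2.4% of all tested genes, with a median of -0.425. With C118 20 and C118 38 left out, 8 of 33 (24.2%) were lower and 0 higher, against 3.98% of all tested genes, with a median of -0.256. The chemokine Cxcl10 had 0.164, 0.116, 1.53, 0.0528 and 2.86 CPM in C118 7, 13, 20, 33 and 38, and at most 0.768 CPM in any library of another group, so the same 2 libraries were high (log2 fold change against Vehicle 3.50 ± 0.988, adjusted p = 0.242, edgeR). Without them Cxcl10 was too low to be tested. The conjugating enzyme of Isg15, Ube2l6, was at 5.05 CPM in C118 20 and at 2.01 to 3.94 CPM in the other 27 libraries, C118 38 among them.

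Of 18 other class I presentation genes 18 were tested and 0 passed in any comparison (edgeR), with 0 to 5 at an unadjusted p under 0.05. Nlrc5, the transactivator of class I genes, was at 2.74 CPM in C118 20 and 1.05 CPM in C118 38, with a log2 fold change of 1.20 ± 0.527 for C118 against Vehicle (adjusted p = 0.562, edgeR). Nlrc5 was at -0.00443 without these 2 libraries (adjusted p = 1, edgeR). Of 9 class II presentation genes 7 were tested and 0 passed in any comparison (edgeR), with 0 to 6 at an unadjusted p under 0.05. In C108 against Vehicle the median of these 7 was -1 with 4 lower and 1 higher at an unadjusted p under 0.05, where 17.4% of all tested genes had such a p in either direction. H2-Aa, a class II chain, had a mean of 0.15 CPM in C108 and 0.81 CPM in Vehicle (log2 fold change -2.41 ± 0.649, adjusted p = 0.0878, edgeR), while H2-DMa, a peptide editor, had 11.7 and 8.56 CPM (0.45 ± 0.102, adjusted p = 0.0567, edgeR).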

How the data were processed

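The authors deposited raw counts per Ensembl gene; counting by HTSeq 0.6.1, quality control by FastQC and MultiQC, and the build mm10 are named in the submitters' processing notes, and per the labels' protocols stranded mRNA libraries were read on a DNBseq instrument. Aligner, annotation release and strand setting: not given in the sources used here. Rows that name no gene (12.63 to 19.74% of all counts per library) were left out. No 2 libraries of a group were copies, since their counts differed beyond sampling noise (lowest chi-square per degree of freedom 4.28). Totals of 16.24 to 20.3 M gene counts make the spread between libraries the main limit, except for genes near 1 CPM.

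Groups came from the treatment and conditioning labels, which name no batch. The filterByExpr function (minimum count 10) left 16735 genes. Levels are CPM on library sizes scaled by TMM (trimmed mean of M values), and centred log2 CPM used a prior count of 2. The 11 comparisons were contrasts of 1 quasi-likelihood model, fitted with edgeR 4.0.16 to the 28 libraries (22 residual degrees of freedom, R 4.3.3), tested on simulated data, two-sided, with Benjamini-Hochberg adjustment over all tested genes at 0.05. Alternatives were DESeq2 1.42.0, limma-voom (limma 3.58.1), other size factors and filters, fits of 2 groups only, and leaving out libraries. Lengths and overlaps are from GENCODE M21 (GRCm38), and promoter windows from RefSeq (GRCm38.p6).

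The genes, role groups, marker and pathway lists and tests were chosen with earlier results of these data known. Genes named with values are the 3 with the smallest p in each comparison with Basal or Vehicle and in C108 against C118, the 8 with the widest range over libraries and the most abundant of each role group; any others named were picked after their values were seen. Genes of the pathway lists were named where they passed, or as those with the smallest p in C118 against Vehicle (Cxcl10, Ube2l6 and Tmem173); Nlrc5, H2-Aa and H2-DMa were picked after their values were seen.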

Additional observations from a re-analysis of the deposited data

Results flagged for a closer look

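In 12 of 150 combinations a single library lay far from the others of its group. The 150 do not cover all 40 genes in the 6 groups. Chance would flag about 1 in 20 (7.5 of 150) for independent genes not chosen by their values. Irf7, Gbp3 and Ifi44, among those flagged, were picked for a wide range over libraries, so 12 beside 7.5 is no test of chance. Of the 12, 4 were in C118, all with C118 20 highest. They were Irf7 at 6.84 CPM (next 2.01), Gbp3 at 8.58 CPM (next 3.76), Ifit2 at 12.3 CPM (next 8.99) and B2m at 87 CPM (next 64.6). In C108, Rsad2 was highest in C108 8 at 0.876 CPM and Ifit3 in C108 21 at 4.16 CPM. In Basal, Basal 9 was lowest for Irf7 (0.877 CPM) and Ifi27 (17.5 CPM), and Basal 1 was highest for Eif2ak2 (5.89 CPM), the kinase PKR. In Vehicle, Vehicle 3 was highest for Ifi44 (0.878 CPM) and Vehicle 29 for Ifit2 (10.2 CPM). RU486 6 was highest in its group for Ifi44 (0.676 CPM).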

How the results depend on the processing

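Of 179 alternative counts of genes called, 170 stayed at the main value of 0 and 9 did not. In Vehicle against Basal, DESeq2 called 1 gene, leaving out 1 library at a time gave 0 to 1, and leaving out both Vehicle 16 and Vehicle 29 gave 1. In C108 against Vehicle, leaving out 1 library at a time gave 0 to 2 (2 without Vehicle 23). In Cort against C118, DESeq2 called 3 and leaving out 1 library at a time gave 0 to 3 (3 without C118 33). In C108 against C118, DESeq2 called 1 and leaving out 1 library at a time gave 0 to 7 (1 without C118 13, 7 without C118 33). The medians over the genes moved most without C118 20 and C118 38, which were picked for their high levels of these genes, as given above. Leaving out 1 library at a time, the medians ranged from 0.0868 to 0.394 for C118 against Vehicle and from -0.624 to -0.283 for C108 against C118. For C118 against Vehicle, 5 single-gene values changed sign: without both C118 20 and C118 38, Ifit1 was at -0.134 and Ifi44 at -0.503; leaving out 1 library at a time, Ifi44 ranged from -0.195 (without C118 20) to 1.01 (without Vehicle 3); without both Vehicle 16 and Vehicle 29, Ifi44 was at -0.0118 and Herc6 at 0.0477. Without both Vehicle 16 and Vehicle 29 the medians against Vehicle were -0.147 for Cort, -0.113 for RU486, -0.35 for C108 and 0.221 for C118. The cause was not tested. No paired analysis was possible because no number in the sample titles recurs between groups. Genes near or under 1 CPM, such as Isg15, Usp18 and Ifi44, rest on few counts per library, and 4 or 5 libraries per group limit all comparisons.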
